A study of Mus musculus with 24 samples.

Results

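A set of 10 classical immediate early genes was followed in RNA-Seq libraries of the mouse nucleus accumbens (NAc): *Fos*, *Fosb*, *Junb*, *Egr1*, *Egr2*, *Egr4*, *Arc*, *Npas4*, *Nr4a1* and *Dusp1*. They were chosen by name, as genes whose transcription neuronal activity induces directly, but with earlier results of these data known. Each of the 10 symbols matched 1 Ensembl identifier among the 38293 genes of the mRNA table. All 10 passed the filter on low counts, with between 246 and 13610 reads in every library. Messenger RNA was measured in 12 libraries, 3 each of nonstressed males (NSM), stressed males (SM), nonstressed females (NSF) and stressed females (SF), and small RNA from the same tissue in 12 further libraries. The study asked how males and females differ in their transcriptional response to subchronic variable stress (SCVS), a course of daily unpredictable stressors (foot shock, tail suspension and restraint).

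All 4 groups were C57BL/6J mice, 9 weeks of age by the labels. SM and SF went through SCVS and gave tissue on the day after the last stressor, and NSM and NSF were unstressed controls of the same sex. Females of both groups were in estrus or proestrus. Each library pooled the bilateral NAc punches of 5 mice (10 punches), so that a value is the mean of a pool and differences between mice within a pool were not measured. The punch takes all cells of the tissue, and in such bulk samples fewer cells of a type and less RNA per cell cannot be told apart.

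Immediate early genes are transcribed within minutes of neuronal firing, without new protein synthesis, when calcium and kinase signals reach transcription factors already bound at their promoters, among them CREB at the cAMP response element (CRE) and the serum response factor at the CArG box. Most of them encode transcription factors (the AP-1 proteins of the Fos and Jun families, the EGR zinc finger proteins, the NR4A orphan nuclear receptors and Npas4), while *Arc* and *Dusp1* encode effectors at synapses and in kinase signalling. Their mRNAs are short-lived, and they are widely used as markers of recent activity. In the NAc, a stable truncated product of *Fosb*, ΔFosB, accumulates with repeated stress or drug exposure. The gene counts used here do not separate the mRNA of ΔFosB from that of full-length FosB.

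The libraries held between 41076780 and 60867747 counted reads. All 10 markers of striatal medium spiny neurons were detected in every library, with a summed level of 4362 to 5504 CPM (counts scaled to library size, with TMM factors). None of them was regulated in any comparison, beside 6.44% of all tested genes in males and 1.73% in females. In males their median log2 fold change was 0.12. There 3 of the 10 had an unadjusted p under 0.05, and the smallest adjusted p was 0.0561 (limma). Markers of cortical glutamatergic neurons differed between libraries: the 8 markers summed to 134 to 221 CPM in NSM, 251 to 416 CPM in SM, 355 to 661 CPM in NSF and 310 to 526 CPM in SF. The 5 blood markers summed to 21.8 to 27.4 CPM in NSM and 38.5 to 47.2 CPM in SM. All 5 were higher in SM (adjusted p under 0.05, limma), against 3.32% of all tested genes with such a p in males. Summed markers of 3 glial types also differed without overlap between NSM and SM. The 5 microglial markers summed to 205 to 225 CPM and 232 to 259 CPM. Of these 5, 2 were regulated upward, against 6.44% of all tested genes regulated in males. The 4 oligodendrocyte markers summed to 3586 to 3960 CPM and 4228 to 4284 CPM, and the 4 astrocyte markers to 376 to 412 CPM and 346 to 372 CPM. None of the 4 was regulated in either list, but 1 oligodendrocyte marker had an adjusted p under 0.05 with a fold under 1.3 (limma). An unadjusted p under 0.05 was found for 3 oligodendrocyte markers and 1 astrocyte marker. Library NSM1 stood apart by 66.1 CPM of *Ttr*, a choroid plexus transcript, against 0.487 CPM to 2.62 CPM in the other 11 libraries. The part of these cell types in the results below was not tested, except where a value without the libraries concerned is given.

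Promoter sequence was at hand for 8 of the 10 genes (RefSeq, GRCm38.p6; none was given for *Arc* and *Egr1*), and the 250 bases upstream of the annotated start were searched on both strands. The core of the CRE, CGTCA, was in that window of all 8 genes, against 19.8% of the 27025 genes with a listed promoter. The full palindrome TGACGTCA was found in *Dusp1* alone of the 8 (1.77% of all genes), and it overlaps 2 CGTCA matches there. The CArG box was found in *Egr2* (1.62% of all genes), the EGR site GCGGGGGCG in *Fosb* and *Nr4a1* (2.93%), the TATAAA box in *Fos* (14.3%), and the AP-1 site TGACTCA in none of the 8 (5.16%). These matches describe letters in a window and say nothing of binding. Printed here are the upstream windows of the 4 of these 8 genes that were regulated by SCVS in males, 5′ to 3′ in the direction of the gene and ending at the base before the start, with matches to CGTCA (or its complement TGACG), the CArG box, the EGR site and TATAAA in capitals. *Egr2* has 5 listed starts, of which the middle one is shown.
Fos, chr12:85473640-85473889, plus strand: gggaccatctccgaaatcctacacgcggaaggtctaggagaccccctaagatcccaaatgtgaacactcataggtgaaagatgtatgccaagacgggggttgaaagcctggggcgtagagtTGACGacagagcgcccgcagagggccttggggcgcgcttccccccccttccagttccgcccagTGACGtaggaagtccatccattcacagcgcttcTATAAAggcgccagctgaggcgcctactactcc
Fosb, chr7:19310046-19310295, minus strand: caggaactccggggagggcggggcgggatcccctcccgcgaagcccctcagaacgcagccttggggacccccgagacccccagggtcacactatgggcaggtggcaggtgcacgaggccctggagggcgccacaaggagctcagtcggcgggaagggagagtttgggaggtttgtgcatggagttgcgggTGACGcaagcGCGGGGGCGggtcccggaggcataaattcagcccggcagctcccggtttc
Egr2, chr10:67537619-67537868, plus strand: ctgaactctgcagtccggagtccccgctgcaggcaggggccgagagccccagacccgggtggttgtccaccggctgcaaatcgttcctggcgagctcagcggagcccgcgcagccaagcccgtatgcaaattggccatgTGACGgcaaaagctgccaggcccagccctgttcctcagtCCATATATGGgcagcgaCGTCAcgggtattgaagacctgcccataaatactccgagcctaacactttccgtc
Nr4a1, chr15:101266596-101266845, plus strand: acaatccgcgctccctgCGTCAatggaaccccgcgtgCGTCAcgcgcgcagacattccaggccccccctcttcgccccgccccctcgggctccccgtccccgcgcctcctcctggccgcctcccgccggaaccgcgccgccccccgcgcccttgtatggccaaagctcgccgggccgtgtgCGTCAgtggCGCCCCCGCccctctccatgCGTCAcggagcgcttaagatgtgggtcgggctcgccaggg

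In these windows *Fos* held 2 CRE cores and its TATAAA box 33 bases from the start, *Fosb* had a CRE core just upstream of the EGR site, *Egr2* carried the CArG box between 2 CRE cores, and *Nr4a1* held 4 CRE cores with the EGR site between the last 2 of them.

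The 10 genes were transcribed at very different levels in unstressed mice. Per kilobase of exon (CPM divided by the length of the merged exons), *Egr1* was highest in NSM at 78.0 ± 7.30 CPM per kb (SD, n = 3 libraries), followed by *Nr4a1* (38.4 ± 7.34), *Arc* (30.1 ± 6.56), *Junb* (14.4 ± 7.48), *Dusp1* (8.14 ± 0.730), *Fos* (7.50 ± 0.741), *Npas4* (6.46 ± 1.27), *Fosb* (5.74 ± 0.427), *Egr4* (4.64 ± 1.92) and *Egr2* (3.32 ± 0.461). In NSM the libraries of neighboring genes in this order were fully apart at 2 of 9 steps, between *Egr1* and *Nr4a1* and between *Arc* and *Junb*, and the other neighbors overlapped. *Egr1*, *Nr4a1*, *Arc* and *Junb* held the first 4 places and *Egr2* the last in all 4 groups, while the genes between changed places: *Egr4* held place 9 in NSM and SM, place 5 in NSF and place 6 in SF.

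In males, 5 of the 10 immediate early genes were regulated by SCVS, and all 5 were downregulated: *Fos* fell by 49.1%, *Egr2* fell by 40.99%, *Fosb* fell by 39.6%, *Nr4a1* fell by 32.9% and *Arc* fell by 30.9% in stressed compared to unstressed mice. The thresholds were those used by the original analysis. A gene counted as regulated where the unadjusted p was under 0.05 and the change in either direction reached 1.3-fold, and by this rule 6.44% of the 18593 tested genes were regulated in males and 4.08% were downregulated. *Fosb* and *Egr2* also had an adjusted p under 0.05 over all tested genes, as did 3.32% of them. With the level of cortical markers as a term in the fit, neither did: the adjusted p was 0.0898 for *Fosb* and 0.178 for *Egr2* (limma). Both stayed regulated by the unadjusted p, with log2 fold changes of -0.80 and -0.84 beside -0.73 and -0.76 without the term. The male groups did not overlap in that level, so in males it and stress cannot be told apart. The log2 fold changes of the other 5 were also below 0, as were those of 52.7% of all tested genes, and the median of the 10 was -0.60 against -0.01 over all tested genes. In 6 of the 10 genes every SM library lay below every NSM library, which held for 11.7% of all tested genes.

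**Figure D1:**
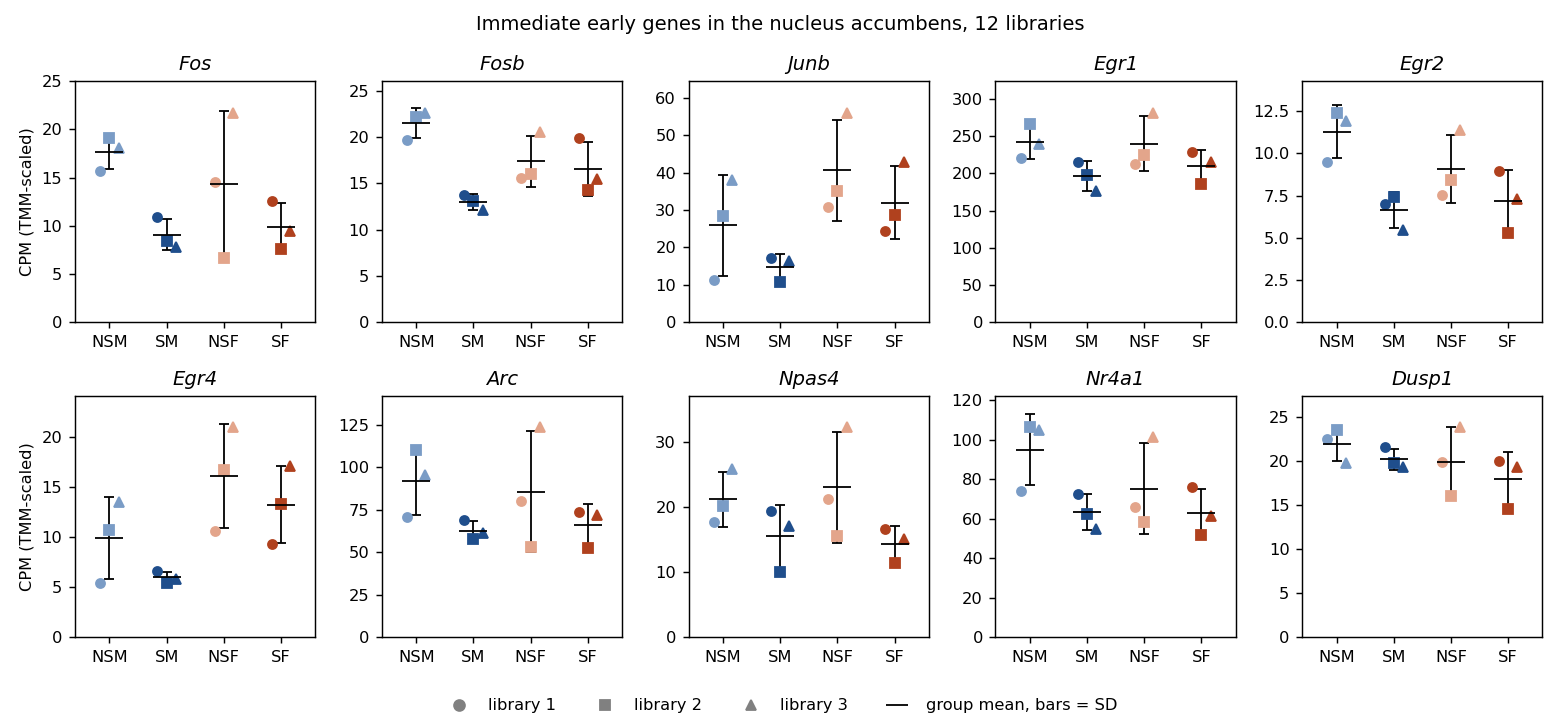
Level of each of the 10 immediate early genes in CPM (TMM-scaled, linear axis from 0) in the 12 mRNA libraries, grouped as NSM, SM, NSF and SF; points are libraries, the horizontal mark is the group mean and the bars are the SD. In *Fos*, *Fosb*, *Egr1*, *Egr2*, *Arc* and *Nr4a1* all 3 SM libraries sit below all 3 NSM libraries, and in all 10 genes library NSF3 is the highest of its group.

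Among the AP-1 genes, *Fos* and *Fosb* fell in stressed males. *Fos* (ENSMUSG00000021250, NCBIM37 chr12:86814840-86818223), the founding member of the family and a partner of Jun proteins in the AP-1 dimer, was at 15.7, 19.1 and 18.0 CPM in NSM and at 10.9, 8.48 and 7.84 CPM in SM. The groups did not overlap, and the log2 fold change was -0.97 ± 0.33 (standard error; adjusted p = 0.116, limma). *Fosb* (ENSMUSG00000003545, chr7:19888070-19895394) was at 19.7, 22.2 and 22.6 CPM in NSM and at 13.8, 13.1 and 12.1 CPM in SM. The 3 SM libraries lay close together and under all NSM libraries, a log2 fold change of -0.73 ± 0.12 (adjusted p = 0.0101, limma). *Junb* (ENSMUSG00000052837, chr8:87500811-87502617), a Jun protein that dimerizes with Fos proteins, was at 11.4, 28.5 and 38.0 CPM in NSM and at 17.1, 10.8 and 16.4 CPM in SM. Library NSM1 was as low as the stressed libraries, the groups overlapped, and the log2 fold change of -0.66 ± 0.41 did not pass the test (adjusted p = 0.361, limma).

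Of the EGR genes, which encode zinc finger factors that bind GC-rich sites, *Egr2* alone passed both thresholds in males. *Egr2* (ENSMUSG00000037868, chr10:66998223-67004936) was at 9.50, 12.4 and 11.9 CPM in NSM and at 7.02, 7.44 and 5.45 CPM in SM. All SM libraries were below all NSM libraries, and the log2 fold change was -0.76 ± 0.19 (adjusted p = 0.0482, limma). *Egr1* (ENSMUSG00000038418, chr18:35020861-35024638), the most abundant of the 10 genes, was at 221, 266 and 239 CPM in NSM and at 215, 198 and 176 CPM in SM. Its groups did not overlap either, but the log2 fold change of -0.30 ± 0.11 (adjusted p = 0.14, limma) stayed under a fold of 1.3. *Egr4* (ENSMUSG00000071341, chr6:85461125-85463583) was at 5.47, 10.7 and 13.6 CPM in NSM and at 6.59, 5.47 and 5.87 CPM in SM. As with *Junb*, NSM1 was as low as the SM libraries, and the log2 fold change of -0.62 ± 0.36 did not pass (adjusted p = 0.343, limma).

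*Nr4a1* (ENSMUSG00000023034, chr15:101097277-101105223), an orphan nuclear receptor induced by calcium and by stress hormones of the pituitary axis, was at 74.0, 106 and 105 CPM in NSM and at 72.7, 62.3 and 54.9 CPM in SM. The highest SM library came close to the lowest NSM library, NSM1, without overlap, and the log2 fold change was -0.58 ± 0.20 (adjusted p = 0.122, limma).

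*Arc* (ENSMUSG00000022602, chr15:74499513-74503000), whose protein acts at synapses in the removal of AMPA receptors, was at 70.5, 110 and 95.2 CPM in NSM and at 68.9, 57.8 and 61.4 CPM in SM. The groups again came close at SM1 and NSM1 without overlap, with a log2 fold change of -0.53 ± 0.24 (adjusted p = 0.22, limma). *Npas4* (ENSMUSG00000045903, chr19:4984355-4989971), a neuron-restricted factor that responds to calcium influx, was at 17.7, 20.1 and 25.8 CPM in NSM and at 19.4, 10.0 and 17.0 CPM in SM. The groups overlapped, and the log2 fold change of -0.50 ± 0.27 did not pass (adjusted p = 0.301, limma). *Dusp1* (ENSMUSG00000024190, chr17:26642535-26645464), a phosphatase that switches off MAP kinases, was at 22.5, 23.6 and 19.8 CPM in NSM and at 21.6, 19.8 and 19.3 CPM in SM, with a log2 fold change of -0.12 ± 0.14 and a 95% interval from -0.41 to 0.17 (adjusted p = 0.645, limma).

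The values of the 10 genes moved together from library to library, so they are not 10 independent measurements: NSM1 was the lowest of its group in 9 of the 10 genes and SM1 the highest of its group in 9 of 10. The count of regulated genes in males fell from 5 to 3 (*Fos*, *Fosb* and *Egr2*) without NSM2 or without SM3. It rose to 7 without NSM1, when *Junb* (log2 fold change -1.19) and *Egr4* (-1.01) were regulated as well. The 4 libraries with the highest mean log2 level of cortical markers (SM2, SM3, NSF1 and NSF3) were also left out together. That leaves SM1 as the only SM library, and the male log2 fold changes then ran from -0.69 (*Fos*) to -0.02 (*Dusp1*).

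In females, *Npas4* alone of the 10 genes was regulated by SCVS, downward, where 1.73% of all tested genes were regulated and 1.09% downregulated. It was at 21.3, 15.5 and 32.2 CPM in NSF and at 16.7, 11.4 and 15.1 CPM in SF. The groups overlapped, and the log2 fold change was -0.62 ± 0.27 (adjusted p = 0.948, limma). No gene of the whole table reached an adjusted p under 0.05 in females by limma, where 786 genes had an unadjusted p under 0.05. The log2 fold changes of all 10 genes were below 0 (51.6% of all tested genes), from -0.62 to -0.07 with a median of -0.29, but in none of the 10 genes did the 3 SF libraries lie below the 3 NSF libraries, which held for 6.41% of all tested genes.

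In females 9 of the 10 genes, all but *Fosb*, had a larger SD within the unstressed than within the stressed group. *Fos* was at 14.5, 6.68 and 21.7 CPM in NSF, a wider range than that of all 3 SF libraries, at 12.6, 7.57 and 9.44 CPM, and its log2 fold change was -0.36 ± 0.33 with a 95% interval from -1.07 to 0.34 (adjusted p = 0.948, limma). *Arc* was at 80.01, 53.0 and 123.4 CPM in NSF and at 73.9, 52.2 and 72.1 CPM in SF. *Nr4a1* was at 65.8, 58.3 and 101 CPM in NSF and at 75.8, 51.5 and 61.2 CPM in SF. The log2 fold changes were -0.30 ± 0.24 for *Arc* and -0.23 ± 0.20 for *Nr4a1* (adjusted p = 0.948 for both, limma). In each of these 3 genes NSF3 was the highest library and NSF2 the lowest of its group, and SF2 the lowest of the stressed group. *Fosb* was at 15.6, 15.99 and 20.5 CPM in NSF and at 19.9, 14.3 and 15.5 CPM in SF, with a log2 fold change of -0.07 ± 0.12 and a 95% interval from -0.33 to 0.19 (adjusted p = 0.962, limma). *Egr2* had a log2 fold change of -0.36 ± 0.19 (adjusted p = 0.948, limma) and *Egr1* one of -0.19 ± 0.11 (adjusted p = 0.948, limma), and *Junb*, *Egr4* and *Dusp1* lay between -0.34 and -0.13.

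NSF3 was the highest of its group in all 10 genes, and it also had the highest summed cortical markers of all libraries (661 CPM). Without it, *Npas4* was no longer regulated (log2 fold change -0.34) and the log2 fold changes of *Fos*, *Fosb*, *Arc*, *Nr4a1* and *Dusp1* turned to between 0.004 and 0.05. *Npas4* was also not regulated without NSF1, SF2 or SF3. In turn, 3 genes were regulated without NSF2 (*Fos*, *Arc* and *Npas4*) and 2 without SF1 (*Egr2* and *Npas4*). Leaving out the 4 libraries rich in cortical markers leaves NSF with NSF2 alone, the lowest of its group in *Fos* and *Arc*. *Fos* was then at 0.53 and *Arc* at 0.30 on the log2 scale.

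**Figure D2:**
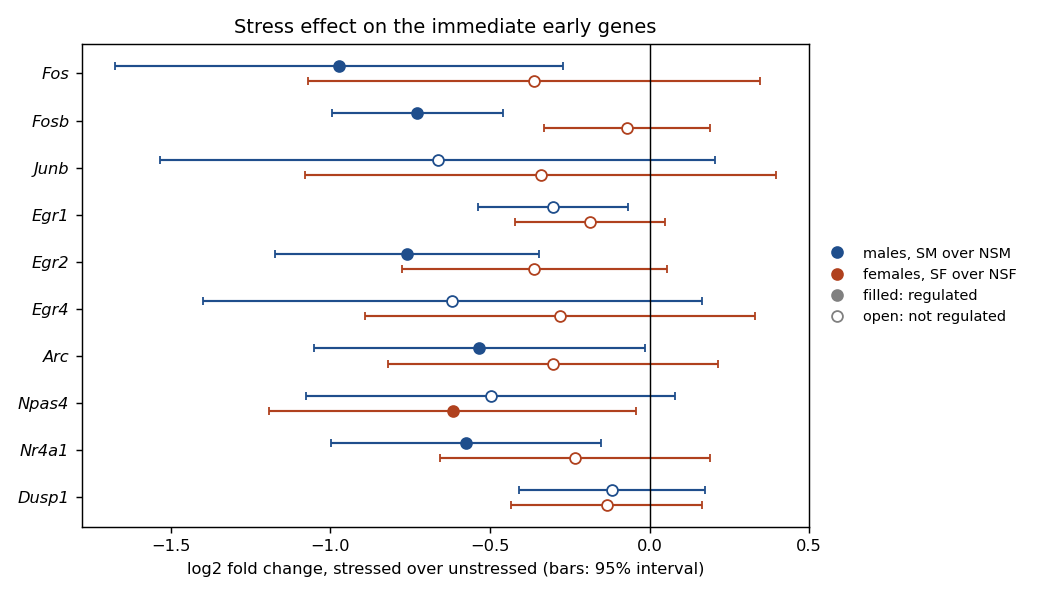
Log2 fold change of stressed over unstressed mice for the 10 immediate early genes, in males (blue) and females (red); bars are 95% intervals from the limma fit, filled circles are regulated genes and open circles are not. All 20 values lie at or below 0, 5 are filled in males and 1 in females, and the intervals of males and females are apart for *Fosb* alone.

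The difference between the sexes in the response to SCVS was tested by the sex-by-stress interaction, for which 4.42% of all tested genes passed. Of the 10 genes *Fosb* passed: its log2 fold change was higher in females than in males by 0.66 ± 0.17 (adjusted p = 0.235, limma), with a 95% interval from 0.28 to 1.03. The interaction of the other 9 genes lay between -0.12 (*Npas4*) and 0.61 (*Fos*) and did not pass. For *Fos* the interval ran from -0.39 to 1.61 and for *Arc* from -0.50 to 0.96, and for both the call depended on how cortical markers were treated. With the cortical marker level as a term the interaction passed for *Fos* at 1.56 ± 0.51 and for *Arc* at 0.91 ± 0.41 (adjusted p = 0.885 for both, limma). The 8 cortical markers themselves had a median interaction of -3.48, and 7 of them passed. This level and the sex-by-stress interaction therefore cannot be told apart. Without the 4 libraries rich in cortical markers the interaction of *Fos* was 1.21, a value that rests on 1 library each in SM (SM1) and NSF (NSF2). *Fosb* kept an interaction between 0.52 and 0.77 and stayed past both thresholds in 25 of 26 alternatives, all but the adjusted p. Without NSF3 the interaction passed for *Fos* and *Nr4a1* as well, without NSM1 for *Junb* and without SF2 for *Egr2*.

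Unstressed males and females differed in 2 of the 10 genes, against 5.31% of all tested genes. *Egr4* was at 5.47, 10.7 and 13.6 CPM in NSM and at 10.6, 16.7 and 20.98 CPM in NSF, a log2 fold change of 0.78 ± 0.30 (adjusted p = 0.235, limma). *Junb* was at 11.4, 28.5 and 38.0 CPM in NSM and at 30.9, 35.0 and 56.0 CPM in NSF, a log2 fold change of 0.78 ± 0.35 (adjusted p = 0.309, limma). In both genes the groups overlapped, and without NSM1 neither was regulated (log2 fold changes of 0.37 and 0.24). In the other direction *Fosb* was lower in NSF (log2 fold change -0.32 ± 0.12, adjusted p = 0.215, limma) by less than the fold threshold, and without NSF3 it passed at -0.44 together with *Fos* (-0.90), *Arc* (-0.48), *Nr4a1* (-0.60) and *Egr2* (-0.48). Without the 4 libraries rich in cortical markers, which leaves NSF with 1 library, 6 of the 10 genes passed, and 1 passed without SM1, SM3, NSF2 or SF2.

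*Egr4* and *Junb* have the most GC-rich transcripts of the 10 genes (68.4% and 62.6%). The tenth of genes with the highest GC content, at or above 58.4%, deviated together from library to library. The median ran from -0.28 in SM2 and -0.23 in NSM1 to 0.21 in NSF3 on the log2 scale. The 3 NSF libraries (0.08 to 0.21) were above NSM1 and NSM2, but NSM3 (0.09) lay above NSF1 (0.08), so these groups overlapped. After a correction for GC content the log2 fold changes of these 2 genes in unstressed mice were lower than the 0.78 of each without it. They were 0.51 ± 0.23 for *Egr4*, which passed, and 0.52 ± 0.28 for *Junb*, which did not. *Fosb* (-0.40) and *Nr4a1* (-0.45) passed in the other direction. With the cortical marker term neither *Egr4* (0.62 ± 0.45) nor *Junb* (0.31 ± 0.52) passed (adjusted p = 0.996 and 0.998, limma), while *Fos* (-1.23), *Arc* (-0.72) and *Fosb* (-0.40) passed as lower in NSF. The summed cortical markers of NSF were above those of NSM without overlap, as was the mean level used as the term. In unstressed mice this level and sex therefore cannot be told apart.

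The stress effects on 12 relatives and partners of these genes were read from the same fit. In males 5 of the 12 were regulated, 3 downward and 2 upward, beside 6.44% of all tested genes, and in females none was (limma; none had an unadjusted p under 0.05). The 3 that fell all had an adjusted p under 0.05. *Nr4a3*, a sister receptor of *Nr4a1*, was at 36.0, 43.5 and 43.0 CPM in NSM and at 22.7, 23.1 and 19.4 CPM in SM, a log2 fold change of -0.91 ± 0.14 (adjusted p = 0.00612, limma). *Fosl2*, which encodes the Fos-related protein Fra-2, was at 55.0, 70.4 and 66.1 CPM in NSM and at 36.4, 36.0 and 35.0 CPM in SM, a log2 fold change of -0.83 ± 0.15 (adjusted p = 0.0119, limma). *Dusp4*, a nuclear MAP kinase phosphatase, was at 7.17, 8.70 and 8.32 CPM in NSM and at 4.83, 5.49 and 5.43 CPM in SM, a log2 fold change of -0.61 ± 0.13 (adjusted p = 0.0274, limma). In these 3 genes and in *Jun* every SM library lay below every NSM library, which held for 11.7% of all tested genes. *Fosl1*, *Nr4a2* and *Bdnf* were higher in every SM library than in every NSM library. The regulated relatives numbered 3 in place of 5 without NSM2, NSM3, SM2 or SM3, each left out in turn.

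These 3 also passed the interaction test, by the unadjusted p, each with a smaller fall in females: the interaction was 0.89 ± 0.19 for *Nr4a3* (adjusted p = 0.15, limma), 0.57 ± 0.21 for *Fosl2* (adjusted p = 0.406, limma) and 0.39 ± 0.18 for *Dusp4* (adjusted p = 0.508, limma). In females their log2 fold changes were -0.02, -0.25 and -0.21. The remaining AP-1 partners stayed under the fold threshold in both sexes. In males *Jun* had a log2 fold change of -0.30 ± 0.12 (adjusted p = 0.18, limma), *Jund* one of -0.05 and *Fosl1* one of 0.17. In females these were -0.17, -0.16 and -0.0009. *Egr3* was at -0.26 in males and -0.15 in females, *Dusp6* at -0.20 and -0.12, *Dusp5* at 0.008 and 0.02, and *Homer1*, whose short activity-induced form is not separated from the long forms by gene counts, at 0.009 and 0.002. In unstressed mice *Egr3* (log2 fold change 0.50), *Jund* (0.47) and *Bdnf* (1.88) were regulated upward in females and *Fosl2* (-0.39) downward. The adjusted p was 0.208, 0.148, 0.304 and 0.218 (limma), and 5.31% of all tested genes were regulated in this comparison. *Egr3* and *Jund* have a GC content of 62.1% and 62.7%, like that of *Junb*. The part of GC content in their differences was not tested.

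**Figure D3:**
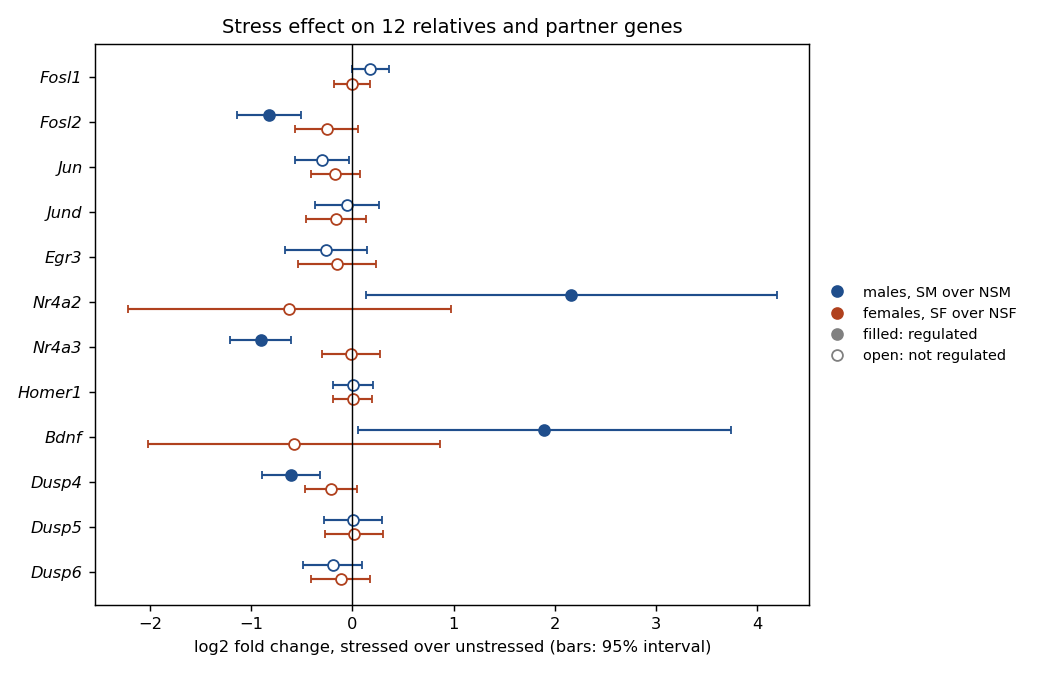
Log2 fold change of stressed over unstressed mice for 12 relatives and partner genes in males (blue) and females (red), with 95% intervals from the limma fit; filled circles are regulated genes. *Fosl2*, *Nr4a3* and *Dusp4* fell in males with narrow intervals, while the intervals of *Nr4a2* and *Bdnf* span several log2 units.

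*Nr4a2* and *Bdnf*, another NR4A receptor and the neurotrophin that activity induces in glutamatergic neurons, went the other way. *Nr4a2* was at 1.78, 1.02 and 2.41 CPM in NSM and at 2.82, 10.1 and 12.8 CPM in SM, a log2 fold change of 2.16 ± 0.94 (adjusted p = 0.206, limma). *Bdnf* was at 0.530, 0.589 and 0.828 CPM in NSM and at 1.11, 2.64 and 4.30 CPM in SM, a log2 fold change of 1.90 ± 0.86 (adjusted p = 0.22, limma). Both were high in SM2, SM3, NSF1, NSF3 and SF3, the libraries in which the cortical marker *Slc17a7*, a vesicular glutamate transporter, was between 93.2 and 297 CPM, and low in the other 7, where it was between 4.02 and 39.5 CPM. With the mean cortical marker level as a term in the fit, the male log2 fold change was -0.34 for *Nr4a2* and -0.25 for *Bdnf*. With the same term *Fos* was at -1.71, *Arc* at -1.01 and *Npas4* at -1.02 in males, lower than without it. All 3 were regulated by the unadjusted p (adjusted p = 0.0815, 0.149 and 0.173, limma). The mean log2 level used as the term was -0.22 to 1.07 in NSM and 1.82 to 3.48 in SM. The male groups did not overlap in it, so in males this level and stress cannot be told apart.

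**Figure D4:**
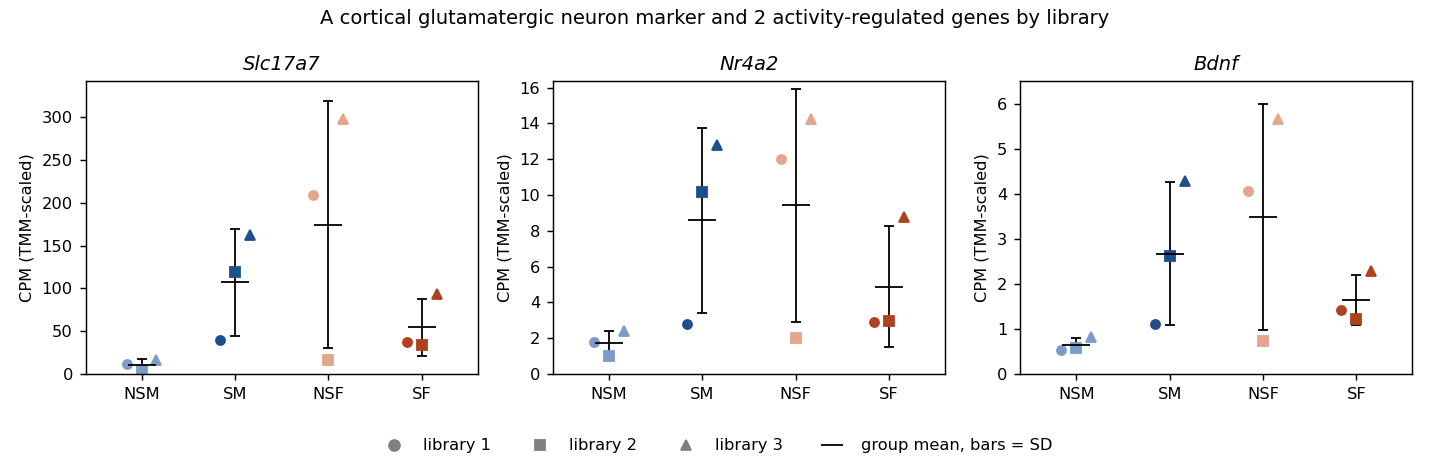
CPM (TMM-scaled, linear axes from 0) of *Slc17a7*, a marker of cortical glutamatergic neurons, and of *Nr4a2* and *Bdnf* in the 12 mRNA libraries; points are libraries, horizontal marks are group means and bars are the SD. The same 5 libraries (SM2, SM3, NSF1, NSF3 and SF3) are the highest in each panel.

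A wider list of 40 other activity-induced genes, such as *Btg2*, *Ier2* and members of the Klf family, fell more often than it rose in males. Of the 40, 12 were downregulated, 1 was upregulated and 27 were not regulated, against 4.08% downregulated among all tested genes, and the median log2 fold change was -0.14 against -0.01 over all tested genes. Without NSM3 the regulated genes numbered 8 in place of 13. Those with an adjusted p under 0.05 were *Gem*, a small GTPase that dampens calcium channels, at -0.75 ± 0.13 (adjusted p = 0.0088, limma), *Pcsk1*, which processes prohormones, at -0.58 ± 0.13 (adjusted p = 0.0312, limma), and *Nfil3*, a bZIP repressor, at -0.43 ± 0.10 (adjusted p = 0.0428, limma). *Gem* was at 3.07, 3.13 and 3.47 CPM in NSM, at 2.14, 2.02 and 1.62 CPM in SM and between 1.73 and 2.10 CPM in all 6 female libraries. It was lower in NSF than in NSM (log2 fold change -0.78, adjusted p = 0.0217, limma), with a mean of 1.88 CPM in NSF beside 1.93 CPM in SM.

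In females 1 of the 40 was regulated, against 1.73% of all tested genes. *Sgk1*, a kinase induced by glucocorticoids, rose by the unadjusted p, with a log2 fold change of 0.40 ± 0.08 (adjusted p = 0.948, limma), from 68.7, 77.2 and 70.7 CPM in NSF to 112, 84.8 and 91.0 CPM in SF. In males it went from 73.7, 69.4 and 72.4 CPM to 89.0, 83.3 and 86.2 CPM, a log2 fold change of 0.26 ± 0.08 (adjusted p = 0.098, limma) under the fold threshold. The groups did not overlap in either sex.

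The kinases and constitutive factors that act on these promoters were read from a list of 22 genes, among them *Creb1* and *Srf*. None of the 22 was regulated in any of the 4 comparisons (limma), beside 6.44% of all tested genes in males and 1.73% in females. An unadjusted p under 0.05 with a fold under 1.3 was found for 9 of the 22 in males and 1 in females. Of all 18593 tested genes, 3992 in males and 786 in females had an unadjusted p under 0.05 at any fold. The median log2 fold change of the 22 in males was -0.05. In males 2 of the 22 had an adjusted p under 0.05 with a fold under 1.3, beside 3.32% of all tested genes at any fold. These 2, singled out after their values were seen, were *Rps6ka2*, a kinase of the MAP kinase pathway, at -0.30 ± 0.05 (adjusted p = 0.0102, limma), and *Mef2c*, an activity-regulated factor, at 0.24 ± 0.06 (adjusted p = 0.0361, limma). Of 6 genes that are known in the NAc as targets of ΔFosB (*Cdk5*, *Gria2*, *Pdyn*, *Ehmt2*, *Camk2a* and *Sparcl1*), none was regulated in any comparison (limma; 1 had an unadjusted p under 0.05 in males and none in females), and their log2 fold changes lay between -0.15 and 0.11 in males and between -0.07 and 0.15 in females.

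Activity was also read from the small RNA libraries through *mir-132* and *mir-212*, which are cut from the same CREB-induced transcript. Their mature 3′ arms (RefSeq, GRCm38.p6, plus strand) share the seed, bases 2 to 8, in capitals, while the counts are per precursor and do not separate the arms.
mmu-miR-132-3p, chr11:75173723-75173744: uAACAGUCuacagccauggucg
mmu-miR-212-3p, chr11:75173443-75173464: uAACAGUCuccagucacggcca

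*mir-132* was at 2925, 3201 and 3160 CPM in NSM and at 3024, 3101 and 3778 CPM in SM, and *mir-212* at 858, 892 and 890 CPM in NSM and at 858, 889 and 864 CPM in SM. The groups overlapped in both, and neither was regulated in either sex, where 5.2% of the 500 tested miRs were in males and 4.8% in females. The log2 fold change of *mir-212* was -0.02 in males, with a 95% interval from -0.15 to 0.12, and 0.004 in females, from -0.13 to 0.14. That of *mir-132* was 0.09 in males, from -0.15 to 0.32, and -0.02 in females, from -0.25 to 0.21. In females *mir-132* was at 2928 to 3672 CPM without and 2867 to 3672 CPM after SCVS, and *mir-212* at 848 to 883 CPM and 830 to 920 CPM.

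Within groups, the genes whose deviations across the 12 libraries were most like the mean deviation of the 10 immediate early genes were *Eed* (Pearson's r = 0.92 over 12 libraries), *Bcas2* (0.90), *Relb*, *Sik1*, *Hspbap1*, *Nacc1*, *Gpr3*, *Sbk1*, *B4galnt1* and *Mmp17* (0.87 to 0.88), the highest of 14425 genes compared. *Sik1* alone of them is in the wider list. None of the 10 had an adjusted p under 0.05 in males or in females (limma). The points share their libraries, depth and base composition, and after removal of the group means the 12 libraries leave few independent values, so the order of these genes is a description.

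**Figure D5:**
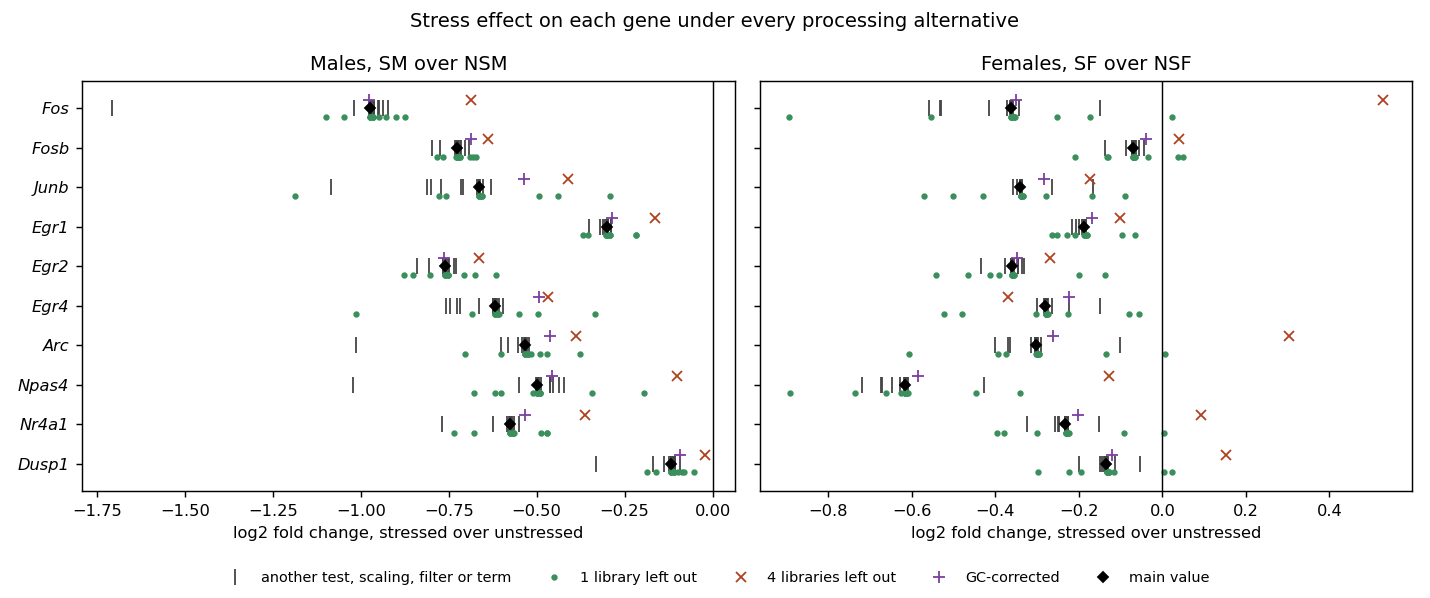
Log2 fold change of stressed over unstressed mice for each of the 10 genes under every alternative, males on the left and females on the right: the main value (diamond), another test, scaling, filter or term (bars), 1 library left out (dots), the 4 libraries rich in cortical markers left out (cross) and a GC correction (plus). All values in males are below 0, while in females those of *Fos*, *Fosb*, *Arc*, *Nr4a1* and *Dusp1* reach above 0.

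Across the 27 alternatives in males the log2 fold change of each of the 10 genes stayed below 0. Not all of these could change the result: some leave out a library of the other sex, and changes of threshold keep the main log2 fold changes. Except under the adjusted threshold, regulated means here by the unadjusted p. *Fosb* and *Egr2* were regulated in all 27, between -0.80 and -0.64 and between -0.88 and -0.62, *Fos* in 26, *Nr4a1* in 23 and *Arc* in 16. *Npas4* was regulated in 6, *Junb* and *Egr4* in 3 each, *Egr1* in 1 and *Dusp1* in none. In females *Npas4* was regulated in 20 of 27 and *Egr2* in 3. Where a female library was left out, *Npas4* was regulated without NSF2 or SF1 and not without NSF1, NSF3, SF2 or SF3.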

How the data were processed

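Messenger RNA and small RNA of mouse NAc pools were measured in 12 libraries each, grouped from the labels. The authors aligned paired mRNA reads from a TruSeq v2 kit, which does not mark strand, to NCBIM37 with TopHat2, assigned them to genes with HTSeq, and mapped small RNA reads to mm9 with Bowtie. The deposited values are raw read counts. Symbols and positions came from the GENCODE annotation of NCBIM37, which held 33789 of the 38293 gene identifiers. None of the 10 genes overlaps another annotated gene.

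A gene was kept where over 5 reads were counted in 80% or more of any group's libraries. In R 4.3.3, edgeR 4.0.16 gave TMM factors, and voom and limma 3.58.1 fitted 1 mean per group over all 12 libraries. P values were adjusted by the Benjamini-Hochberg method over all features tested. With 3 libraries per group an exact permutation test cannot go below 0.1, so p values come from this fit, and they measure the spread between pools. The fit was tested on simulated data. No libraries held the same counts.

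The 10 genes, the lists (relatives, 40 wider and 22 upstream genes, ΔFosB targets, 8 marker lists) and the alternatives were chosen with earlier results of these data known. By rule all 10 genes and 12 relatives were named, as were genes of the wider list with an adjusted p under 0.05 in males or regulated in females, and the 10 genes of mean level of at least 1 CPM most like the 10 in deviation. The alternatives tried were DESeq2 1.42.0, edgeR's quasi-likelihood test, other scalings, filters and thresholds, quality weights, a replicate block, a cortical marker term, the 6 libraries of a comparison and each library left out. Leaving out 4 libraries and the GC correction (20 bins) were added after seeing the data. Python 3.11.15, numpy 2.4.6, scipy 1.17.1, pandas 2.3.3 and matplotlib 3.10.9 were used.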

Additional observations from a re-analysis of the deposited data

Results flagged for a closer look

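The sex-by-stress interaction, the log2 fold change in females minus that in males, passed p under 0.05 and a fold of 1.3 for 1 of the 10 immediate early genes, *Fosb* (0.66), and for 5 of the 12 relatives: *Nr4a3* (0.89), *Fosl2* (0.57) and *Dusp4* (0.39), which fell in males, and *Nr4a2* (-2.79) and *Bdnf* (-2.47), which follow the cortical markers by library. In the wider list it passed for 7 of the 40 genes (17.5%), against 4.42% of all tested genes. They were *Gem* (0.83) and *Pcsk1* (0.57) and, named after their values were seen, *Rasd1* (0.97), *Gadd45g* (0.71), *Atf3* (0.68) and *Klf4* (0.43), all 6 of which fell in males, and *Ctgf* (-2.55), which rose in males and was at -0.07 with the cortical marker term. None of these 13 interactions had an adjusted p under 0.05 (limma). Groups of 3 libraries were not tested for outlying samples.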

How the results depend on the processing

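Of 2161 log2 fold changes under the alternatives, 1873 kept their direction and their side of the thresholds, 113 lost and 55 gained a call, and 120 changed sign. The cause of these changes was not tested. The labels reuse the numbers 1 to 3 in every group without saying that they pair libraries. Deviations of same-numbered stressed and unstressed mRNA libraries correlated at only 0.0007 to 0.32 in males and 0.08 to 0.11 in females. Those of the small RNA libraries correlated at -0.02 to 0.29 and 0.12 to 0.31. The numbers were not taken to pair the libraries, although 4 of 6 stressed libraries of each kind correlated best with their own number. A pairing was not tested further. With the replicate block 8 of the 10 genes were regulated in males, the 5 and *Egr4* (-0.75, adjusted p = 0.0394, limma), *Junb* (-0.77, adjusted p = 0.0861) and *Npas4* (-0.46, adjusted p = 0.12), and 1, 1 and 2 as before in females, the interaction and unstressed mice, where *Egr4* (0.73) had an adjusted p of 0.0342.

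By the adjusted p 2 of the 10 genes passed in males, and 0 in females, the interaction and unstressed mice (limma), and 3 relatives and 3 genes of the wider list in males and 0 of it for the interaction. Leaving out 1 library at a time gave 3 to 7 of the 10 genes in males, 0 to 3 in females, 1 to 3 for the interaction, 1 to 5 in unstressed mice, and in males 3 to 5 relatives and 8 to 14 of the wider list, with 5 to 8 of that list for the interaction. Without the 4 libraries rich in cortical markers, which leaves SM and NSF with 1 library each, assumed to vary like the others, the counts were 3, 0, 2 and 6, with 3 relatives. With the cortical marker term they were 0 in females, 3 for the interaction (*Fosb*, *Fos* and *Arc*) and 3 in unstressed mice (the same 3, without *Junb* and *Egr4*), and after GC correction 3 in unstressed mice (*Fosb*, *Nr4a1* and *Egr4*). Quality weights gave 2 in females and 3 relatives in males, and scaling by library size 1 in unstressed mice and 3 relatives. In unstressed mice edgeR gave 1, DESeq2 0 and the 6 libraries alone 1. Neither miR was regulated under any alternative run (limma, edgeR and DESeq2).

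Signs turned as follows. Without the 4 libraries, in females *Fos* was at 0.53, *Fosb* 0.039, *Arc* 0.30, *Nr4a1* 0.093, *Dusp1* 0.15, *Jun* 0.022, *Nr4a2* 1.05, *Nr4a3* 0.14, *Homer1* -0.16, *Bdnf* 1.08 and *Dusp6* 0.16, in males *Jund* 0.069 and *Dusp5* -0.052, the interaction of *Dusp1* 0.17 and the difference of unstressed mice in *Npas4* -0.43. With the cortical marker term, in females *Fosl1* was at 0.0032, *Nr4a2* 0.48, *Nr4a3* 0.0097, *Homer1* -0.077 and *Bdnf* 0.19, in males *Nr4a2* -0.34, *Bdnf* -0.25 and *Dusp5* -0.20, the interaction of *Npas4* 0.60 and *Dusp1* 0.28, and unstressed mice in *Npas4* -0.50. After GC correction, *Npas4* was at -0.029 in unstressed mice, *Fosl1* 0.034 and *Homer1* -0.028 in females, and *Jund* 0.076 and *Homer1* -0.017 in males. Scaled by library size, the interaction of *Dusp1* was 0.020, and *Homer1* -0.041, *Dusp5* -0.044 and *mir-212* 0.0012 in males and *Homer1* -0.018 and *mir-132* 0.041 in females. In females, DESeq2's size factors gave *Fosl1* 0.0050 and *mir-212* -0.0018, quantile normalization *Fosl1* 0.020, *Homer1* -0.013, *mir-132* 0.052 and *mir-212* -0.057, edgeR *Fosl1* 0.0060 and *Dusp5* -0.0083, DESeq2 *Fosl1* 0.011, *Dusp5* -0.0024 and *mir-212* -0.00083, the looser filter *Fosl1* 0.0029, and quality weights *Homer1* -0.0072 and *Dusp5* -0.069. In males these gave *mir-212* 0.0083 (size factors) and 0.0079 (DESeq2), and *Homer1* -0.0047 (quantile) and, with quality weights, *Homer1* -0.014 and *Dusp5* -0.070.

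With 1 library left out, signs turned in females for *Fos* (-0.89 to 0.024), *Fosb* (-0.21 to 0.050), *Arc* (-0.61 to 0.0066), *Nr4a1* (-0.40 to 0.0040), *Dusp1* (-0.30 to 0.023), *Fosl1* (-0.068 to 0.060), *Egr3* (-0.34 to 0.0067), *Nr4a3* (-0.16 to 0.13), *Homer1* (-0.075 to 0.089), *Bdnf* (-1.61 to 0.0099), *Dusp5* (-0.17 to 0.10), *Dusp6* (-0.26 to 0.047), *mir-132* (-0.13 to 0.060) and *mir-212* (-0.044 to 0.037). In males they turned for *Jund* (-0.17 to 0.059), *Homer1* (-0.045 to 0.082), *Dusp5* (-0.043 to 0.094), *mir-132* (-0.016 to 0.14) and *mir-212* (-0.032 to 0.014), in unstressed mice for *Fos* (-0.90 to 0.026), *Egr1* (-0.15 to 0.051), *Arc* (-0.48 to 0.14) and *Npas4* (-0.22 to 0.33), and in the interaction for *Junb* (-0.046 to 0.85), *Arc* (-0.075 to 0.53), *Npas4* (-0.42 to 0.15) and *Dusp1* (-0.18 to 0.13).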
